A study of Mus musculus with 35 samples.

Results

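The genes described are 39 genes of rod photoreceptors and of the rod light response, of 25655 genes listed in mouse retina. They were taken by gene symbol, and each of the 39 was found once and had a test result in all 8 comparisons of the study. The rule uses symbols and no measured value, but the set was chosen with earlier results of these data known. The study examined how removing microglia, which are the immune cells residing in the retina, and letting them return alters retinal messenger RNA in diabetes. All 35 samples were whole retina of wild-type mice (CX3CR1-WT), and poly(A) RNA was sequenced from stranded libraries. Non-diabetic mice without further treatment in their labels (ND) gave 6 samples. Diabetic mice gave 5 samples each after 6 (D6), 8 (D8) and 10 (D10) weeks of the disease, and the D8 and D10 labels add PBS, which the ND and D6 labels do not. The D8 depleted group (4 samples) had 2 weeks of depletion up to week 8. The D10 repopulated group (5 samples, diabetic for 10 weeks) and the ND repopulated group (5 samples, non-diabetic) had 2 weeks of depletion and then 2 weeks of recovery. The depleting agent is DTx in the sample labels and PLX-5622 in the series description, and which was given was not settled here, so it is called depletion. The sources used here do not give how diabetes was induced, the age of the mice, or whether each sample is 1 animal.

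Rods convert light into a change in membrane current. Light-activated visual pigment switches on transducin, transducin releases the catalytic subunits of phosphodiesterase 6 from their inhibitory subunit, cyclic GMP is broken down, and cation channels close. Arrestin, the pigment kinase and the RGS9 complex end the response, and guanylate cyclases with their calcium-sensing activators restore cyclic GMP. The outer segment that holds these proteins is built on peripherins, a ciliary scaffold and the surrounding matrix, and its genes are switched on by Crx, Nrl and Nr2e3.

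The values are the authors' own comparisons: per gene, a log2 fold change, the higher of the means of its 2 groups, a p-value and a false discovery rate (FDR) p-value. Values per sample were not analysed here, so sequencing depth is unknown and no SD within a group can be given. The standard error (SE) in parentheses after a log2 value is the one that the deposited p implies, with a normal quantile. A gene was called at an FDR p under 0.05 over all genes tested. In the comparisons of groups of 5 samples with ND the SE of the 39 genes lay between 0.140 and 0.328, with a median of 0.168, and in D8 depleted against ND it reached 0.350 (Rgs9). A p-value sets a difference against the spread between samples, which may be technical. In bulk RNA, fewer rods and less RNA per rod cannot be told apart. The 14 cone, 13 bipolar, 14 amacrine and horizontal and 12 ganglion cell markers of retina all had a test result in each table. The library numbers in the titles of D8 and D10 form a run apart from those of the other 5 groups, and an effect of that difference cannot be told apart from that of the groups. Marker lists of other cells moved in the same comparisons, and their part in the results below was not tested. After depletion (D8 depleted against D8), 14 of 15 microglia markers fell (median log2 -3.60), 11 of 14 tested lens genes fell (median -3.14) and 4 of 5 tested blood genes rose (median 2.13). At D6 against ND, 10 of 11 gliosis genes rose (median 2.31) and 4 of 15 lens genes rose (median 1.82), and at D8 against ND 10 of 15 lens genes fell (median -4.92).

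Of the 39 rod genes, 15 were called lower in at least 1 comparison, 4 were called higher in at least 1, none was called in both directions, and 20 were called in no comparison. These counts over the 8 comparisons have no matching share of all genes beside them. They describe the 39 genes and do not show a trait particular to rod genes. At 6 weeks of diabetes 3 genes rose and 11 fell against ND, where 14.1% of all tested genes were called higher and 9.31% lower. The median log2 fold change of the 39 was -0.07, beside 0.04 over all genes tested. At 8 weeks 2 genes rose and none fell, with 2.91% of all genes called in either direction and 7 of the 39 at an unadjusted p under 0.05. At 10 weeks 2 rose and 1 fell (7% of all genes called). In D8 depleted retina against ND 3 rose and 11 fell, where 15.5% of all genes were called higher and 13% lower, and the median of the 39 was -0.31 beside 0.02 over all genes. In D10 repopulated retina against ND 2 rose and 2 fell (11.7% of all genes called). These 5 comparisons use the same ND samples, so their values stand side by side and are not independent of each other.

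**Figure D1:**
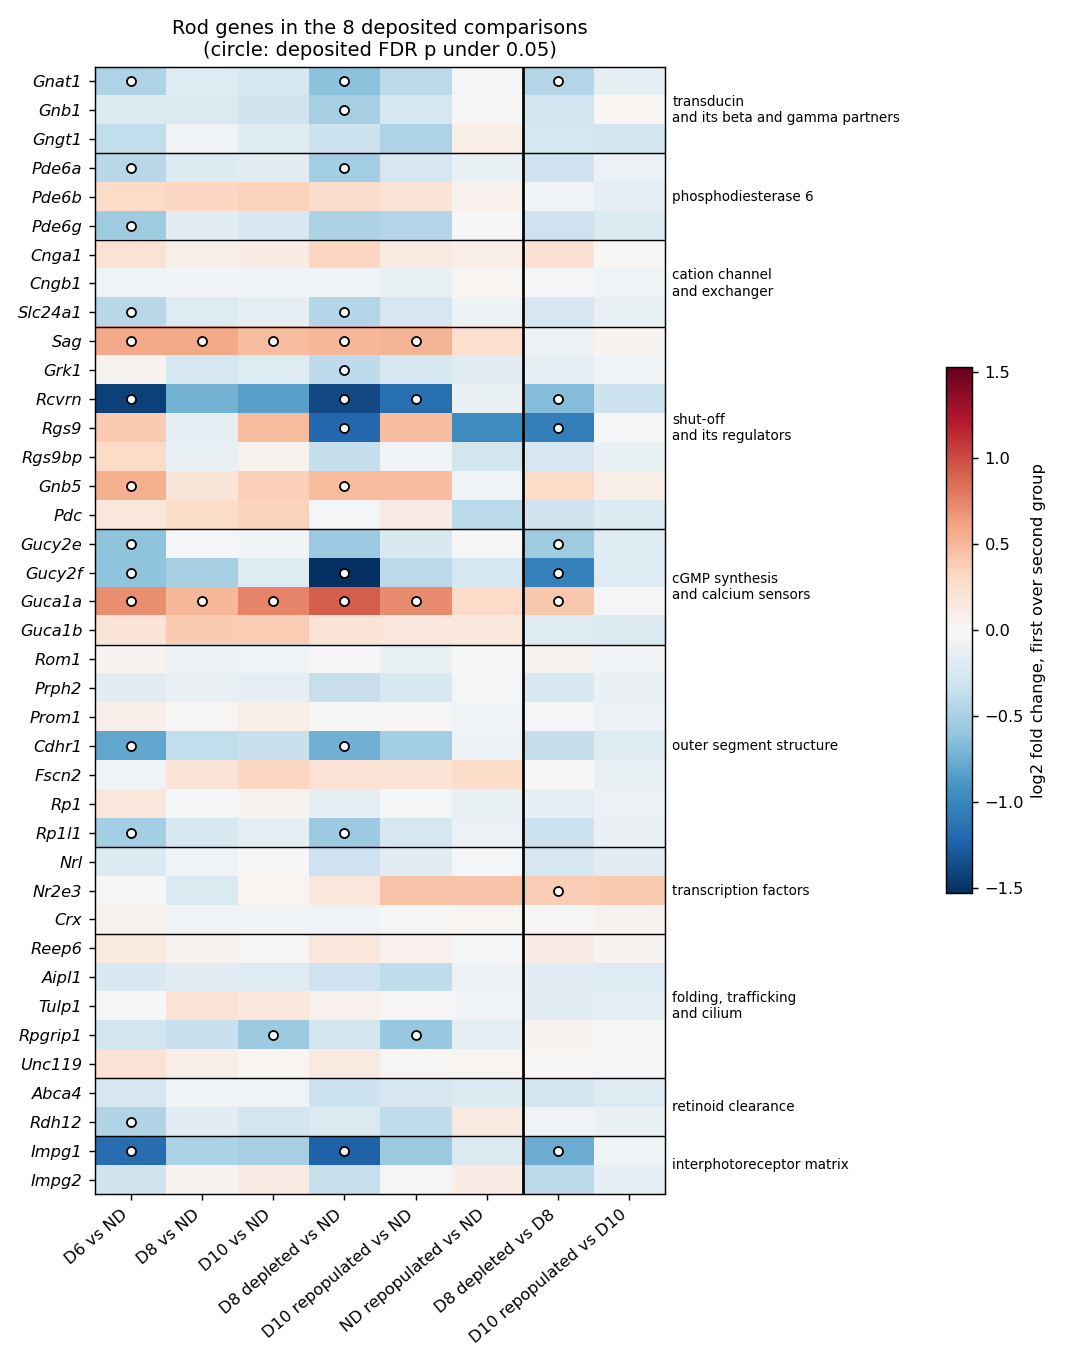
Log2 fold change of each of the 39 rod genes (rows, grouped by role) in the 8 deposited comparisons (columns), with red for higher and blue for lower in the first named group and a circle for a deposited FDR p under 0.05. Sag and Guca1a are red with a circle in all 5 comparisons of diabetic retina with ND, and Rcvrn and Impg1 are the darkest blue at D6.

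Among the 6 transducin and phosphodiesterase 6 genes of the activation step, Gnat1, Pde6a and Pde6g fell at 6 weeks, and Gnb1, Gngt1 and Pde6b were not called. Gnat1 encodes the rod transducin alpha subunit. Its group mean was 3630 in ND, 3231 in D8 and 3031 in D10, on the authors' scale, whose unit is not stated. Gnat1 stood at log2 -0.48 (0.17) at D6 against ND, 0.72 times the ND level, with an FDR p of 0.0261 in the authors' deposited table. It was lower again in D8 depleted retina against ND, log2 -0.63 (0.18), FDR p = 0.00331, and at -0.20, -0.27 and -0.40 it was not called at D8, D10 and D10 repopulated in the authors' deposited tables. Gnb1, the beta subunit gene that many other cells share, fell only in D8 depleted against ND among the 8 comparisons, log2 -0.51 (0.17), FDR p = 0.0119 in the authors' deposited table. The gamma subunit gene Gngt1 was at -0.37 at D6 and -0.47 at D10 repopulated in the authors' deposited tables, without a call.

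Phosphodiesterase 6 of rods has 2 catalytic subunits, from Pde6a and Pde6b, and the inhibitory subunit from Pde6g. Pde6a fell at D6, log2 -0.43 (0.17), FDR p = 0.0489, and in D8 depleted retina, -0.52 (0.18), FDR p = 0.0190, both against ND in the authors' deposited tables. Pde6g fell at D6, log2 -0.55 (0.19), FDR p = 0.0249 in the authors' deposited table. Pde6b had the opposite sign, at 0.29, 0.31, 0.35, 0.27 and 0.21 at D6, D8, D10, D8 depleted and D10 repopulated against ND in the authors' deposited tables, and was called in none of them. The genes of both catalytic subunits therefore lay on either side of 0 in each of the 5 comparisons of diabetic retina with ND. That difference between the genes was not tested.

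The channel genes were called in no comparison. Cnga1 and Cngb1, the subunits of the cyclic GMP-gated channel, ranged from 0.01 to 0.33 and from -0.11 to 0.03 over the 8 comparisons in the authors' deposited tables. The exchanger gene Slc24a1, whose product removes calcium from the outer segment, fell at D6, log2 -0.43 (0.17), FDR p = 0.0447, and in D8 depleted retina, -0.44 (0.18), FDR p = 0.0445, against ND in the authors' deposited tables.

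The genes of the shut-off step moved in both directions, with arrestin higher in 5 and recoverin lower in 3 of the 5 comparisons of a diabetic group with ND. Sag, rod arrestin (chr1:87731402-87772880 in GRCm39, forward strand), had a group mean of 1632 in ND repopulated and between 1940 and 2106 in the 5 diabetic groups. All 5 diabetic groups lay above ND repopulated, and the ND mean itself was not recovered, because a table gives only the larger mean of a pair. Sag rose in all 5 comparisons of a diabetic group with ND: log2 0.58 (0.15) at D6, FDR p = 0.00157, 0.58 at D8, FDR p = 0.00792, 0.47 at D10, FDR p = 0.0282, 0.51 at D8 depleted, FDR p = 0.00908, and 0.51 at D10 repopulated, FDR p = 0.00971, in the authors' deposited tables. In the non-diabetic repopulated retina it was at 0.24 without a call in the authors' deposited table. Between diabetic groups Sag was at -0.08 after depletion and 0.04 after repopulation in the authors' deposited tables, neither called.

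Rcvrn encodes recoverin, the calcium sensor that restrains the pigment kinase (chr11:67586152-67594159 in GRCm39, forward strand). Its group mean was 941 in ND, 581 in D8 and 536 in D10, on the same scale without a stated unit. Rcvrn fell at D6 against ND, log2 -1.43 (0.30), 0.37 times the ND level, FDR p = 5.59e-05 in the authors' deposited table. It also fell in D8 depleted, -1.39 (0.32), FDR p = 0.000214, and in D10 repopulated, -1.15 (0.30), FDR p = 0.00277, against ND in the authors' deposited tables. At D8 and D10 the values of -0.72 and -0.83 in the authors' deposited tables were not called, while non-diabetic repopulated retina was at -0.10. Its SE of 0.30 against ND is the second largest of the 39 genes, after that of Rgs9. Grk1, the kinase gene itself, was lower only in D8 depleted against ND, log2 -0.40 (0.16), FDR p = 0.0460 in the authors' deposited table. That call was lost when all values of the authors' deposited table were centred on the median of the genes above the level filter (adjusted p = 0.0501).

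The RGS9 complex speeds up the end of transducin signalling. It consists of Rgs9, its anchor Rgs9bp and the beta subunit Gnb5. The group mean of Rgs9 (chr11:109116181-109188955 in GRCm39, reverse strand) was 13.6 in D8, 14.8 in ND, 18.5 in D6, 20.6 in D10 repopulated and 20.9 in D10. Rgs9 fell in D8 depleted retina against ND, log2 -1.20 (0.35), 0.44 times the ND level, FDR p = 0.0043 in the authors' deposited table. In D6, D10 and D10 repopulated retina it was at 0.40, 0.48 and 0.47 against ND in the authors' deposited tables, without a call. Rgs9bp was called in no comparison (-0.37 to 0.30 in the authors' deposited tables). Gnb5, which other neurons also express, rose at D6, log2 0.55 (0.17), FDR p = 0.0117, and in D8 depleted retina, 0.48 (0.18), FDR p = 0.0353, against ND in the authors' deposited tables. The second of these calls was lost when the authors' deposited values were centred on the median of the 1000 genes of highest level (adjusted p = 0.0675). Pdc, the phosducin gene, whose product binds transducin beta and gamma subunits, was called in no deposited comparison, from -0.41 in ND repopulated to 0.34 in D10 against ND in the authors' deposited tables.

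**Figure D2:**
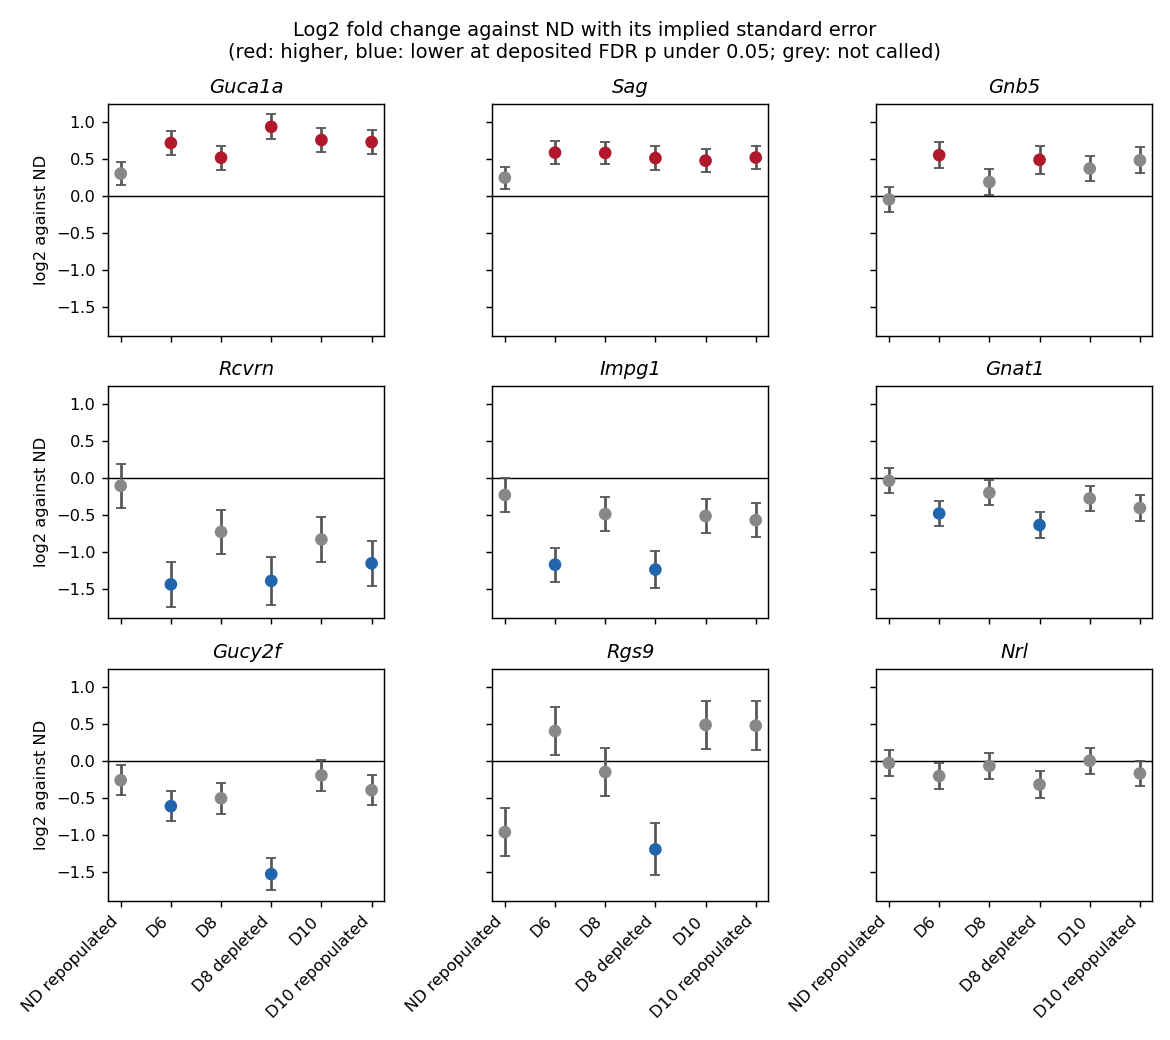
Log2 fold change against ND (y axis) for 9 rod genes in the 6 groups compared with ND (x axis), with bars of 1 implied SE and red or blue points where the deposited FDR p was under 0.05. Guca1a and Sag are red in the 5 diabetic groups, and Gucy2f and Rgs9 are lowest in D8 depleted, at -1.53 and -1.20.

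Among the genes of cyclic GMP synthesis, both membrane guanylate cyclases fell at 6 weeks while the activator gene Guca1a rose. Gucy2e, the more widely studied of the 2 photoreceptor cyclases, stood at log2 -0.61 (0.22) at D6 against ND, FDR p = 0.0289, and Gucy2f (chrX:140864156-140979927 in GRCm39, reverse strand) also at -0.61 (0.21), FDR p = 0.0178, in the authors' deposited tables. In D8 depleted retina against ND Gucy2f was at -1.53 (0.22), 0.35 times the ND level, FDR p = 8.26e-10, the smallest FDR p of any of the 39 genes in the 8 comparisons of the authors' deposited tables. Its group mean was low throughout, 6.61 in ND, 5.82 in D10 and 4.75 in D8. At D8, D10 and D10 repopulated against ND Gucy2f was at -0.51, -0.20 and -0.40 in the authors' deposited tables, without a call.

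Guca1a encodes a guanylate cyclase activating protein, the calcium sensor of the cyclases (chr17:47705483-47711509 in GRCm39, reverse strand). Its group mean was 1070 in ND repopulated, 1267 in D8, 1391 in D6, 1449 in D10 repopulated, 1483 in D10 and 1712 in D8 depleted. Every diabetic group mean lay above that of ND repopulated, and D8 depleted was highest. Guca1a rose against ND by log2 0.71 (0.16) at D6, FDR p = 0.000203, 0.51 (0.16) at D8, FDR p = 0.0483, 0.75 (0.16) at D10, FDR p = 0.000104, 0.93 (0.17) at D8 depleted, FDR p = 2.3e-06, and 0.72 (0.16) at D10 repopulated, FDR p = 0.00021, in the authors' deposited tables. The call at D8 was lost when the lowest 40 percent of genes by level were left out of the authors' deposited table (adjusted p = 0.0512). The paralogous neighbour Guca1b, which ends 1590 bases from the end of Guca1a on the opposite strand, was called in no comparison (-0.22 to 0.40 in the authors' deposited tables).

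After Rcvrn, the interphotoreceptor matrix gene Impg1 and the outer segment gene Cdhr1 had the lowest log2 values of the 39 at 6 weeks. Impg1, a proteoglycan of the matrix around the outer segments (chr9:80220612-80347534 in GRCm39, reverse strand), stood at log2 -1.17 (0.23) at D6 against ND, 0.45 times the ND level, FDR p = 1.64e-05 in the authors' deposited table. It was at -1.23 (0.25) in D8 depleted, FDR p = 1.35e-05, and without a call at -0.48, -0.51 and -0.57 in D8, D10 and D10 repopulated, against ND in the authors' deposited tables. Impg2, the second matrix proteoglycan, was called in no comparison (-0.40 to 0.13 in the authors' deposited tables). Cdhr1, a cadherin at the base of the outer segment, fell at D6, log2 -0.79 (0.21), FDR p = 0.00236, and in D8 depleted, -0.73 (0.23), FDR p = 0.00753, against ND in the authors' deposited tables. Rp1l1, an axoneme gene, fell in the same pair of comparisons, at -0.52 (0.19), FDR p = 0.0354, and -0.56 (0.21), FDR p = 0.0265, in the authors' deposited tables. The other 5 structural genes were called in no comparison: the disc rim genes Rom1 and Prph2, the disc membrane gene Prom1, the actin bundler Fscn2 and the axoneme gene Rp1. Their log2 values spanned -0.35 (Prph2, D8 depleted against ND) to 0.32 (Fscn2, D10 against ND) in the authors' deposited tables.

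Of the transcription factors, Crx and Nrl were called in no comparison. Crx, which acts in rods and cones, stayed between -0.06 and 0.05, and Nrl, the factor that sets rod fate, between -0.32 and 0.00 on the log2 scale in the authors' deposited tables. Nr2e3, which represses cone genes in rods, had a group mean of 278 in ND, 288 in D10, 321 in D8 depleted, 376 in ND repopulated and 379 in D10 repopulated. Its highest means were thus those of both repopulated groups, at log2 0.44 (0.24) and 0.43 (0.24) against ND in the authors' deposited tables, neither called (95% intervals -0.02 to 0.90 and -0.03 to 0.90). In the folding, trafficking and cilium group 4 of 5 genes (Reep6, Aipl1, Tulp1 and Unc119) were called in no comparison. Rpgrip1, a scaffold of the connecting cilium, fell at D10, log2 -0.56 (0.18), FDR p = 0.0243, and in D10 repopulated retina, -0.58 (0.18), FDR p = 0.0121, against ND in the authors' deposited tables. Rpgrip1 overlaps Supt16 on the other strand, and the strand setting of the authors' counting is not known here. Of the genes that clear retinoid after bleaching, Rdh12 fell at D6, log2 -0.46 (0.15), FDR p = 0.0140 in the authors' deposited table, and the flippase gene Abca4 was called in no comparison (-0.32 to -0.06 in the authors' deposited tables).

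The promoters of 4 genes are shown because Sag and Guca1a were higher in every diabetic group and Gucy2f and Rgs9 had the largest falls after depletion. Each is the 250 bases before the RefSeq start in GRCm38.p6, an older build than the GRCm39 positions above, 5′ to 3′ on the strand of the gene. Capitals mark TAATCC, the core bound by Crx and Otx2, and TGCTGA, a half-site of the Maf family to which Nrl belongs, on either strand (GGATTA and TCAGCA). The windows are chr1:87803430-87803679 (forward) for Sag, chr17:47400607-47400856 (reverse) for Guca1a, chrX:142196937-142197186 (reverse) for Gucy2f and chr11:109298182-109298431 (reverse) for Rgs9.
Sag: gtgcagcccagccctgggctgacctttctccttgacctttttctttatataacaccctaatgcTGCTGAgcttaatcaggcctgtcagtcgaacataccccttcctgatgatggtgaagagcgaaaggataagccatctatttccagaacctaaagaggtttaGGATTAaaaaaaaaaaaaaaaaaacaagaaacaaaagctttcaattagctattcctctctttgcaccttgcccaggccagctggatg
Guca1a: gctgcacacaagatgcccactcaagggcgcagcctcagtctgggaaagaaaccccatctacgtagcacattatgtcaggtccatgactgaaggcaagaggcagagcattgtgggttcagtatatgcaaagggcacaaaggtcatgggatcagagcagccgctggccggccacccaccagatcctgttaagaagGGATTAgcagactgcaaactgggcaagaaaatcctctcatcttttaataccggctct
Gucy2f: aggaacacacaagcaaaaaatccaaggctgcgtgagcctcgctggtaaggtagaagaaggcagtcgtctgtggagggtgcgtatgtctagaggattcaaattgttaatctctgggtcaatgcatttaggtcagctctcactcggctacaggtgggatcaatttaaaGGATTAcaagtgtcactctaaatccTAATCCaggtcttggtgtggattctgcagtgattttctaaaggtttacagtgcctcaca
Rgs9: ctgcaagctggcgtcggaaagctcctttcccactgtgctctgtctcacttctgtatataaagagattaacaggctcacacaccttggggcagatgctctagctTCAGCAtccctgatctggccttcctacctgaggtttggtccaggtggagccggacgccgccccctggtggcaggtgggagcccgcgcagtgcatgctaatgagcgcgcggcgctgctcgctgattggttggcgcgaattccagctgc

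Sag holds 1 match of each motif, Guca1a 1 TAATCC match, Gucy2f 2 TAATCC matches and Rgs9 1 TGCTGA match, and no match of one motif overlaps the other. Of the 39 genes 30 matched the RefSeq promoter table, with 33 windows. TAATCC stood in 13 of these 33 windows and in 6.25% of all 32851 windows of this length, and TGCTGA in 7 of the 33 and in 16.1% of all windows. By call, TAATCC stood in 3 of 10 matched genes that were lower in a comparison, 3 of 4 that were higher and 7 of 16 called in none. A match describes the letters in this window and is not evidence of binding.

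After depletion of microglia in diabetic retina, Rgs9, both cyclase genes, Impg1, Rcvrn and Gnat1 were called lower in the authors' deposited table. Guca1a and Nr2e3 were called higher. Only Rgs9, Gucy2f and Impg1 were also called with the other error described below. In D8 depleted against D8, 2 of the 39 genes rose and 6 fell, where 5.85% of all genes were called higher and 4.9% lower. The share of the 39 that rose was not above that of all genes. The median of the 39 was -0.20 beside 0.00 over all genes, and 30 of the 39 had a negative value. These signs come from the same samples, are not independent of each other and were not tested as a set. Rgs9 fell, log2 -1.05 (0.24), 0.48 times the D8 level, FDR p = 0.000662, and Gucy2f, log2 -1.03 (0.24), 0.49 times, FDR p = 0.00126, in the authors' deposited table. Impg1 stood at -0.76 (0.24), FDR p = 0.0232, Rcvrn at -0.67 (0.19), FDR p = 0.0104, Gucy2e at -0.54 (0.16), FDR p = 0.0121, and Gnat1 at -0.44 (0.15), FDR p = 0.0345, in the authors' deposited table. Guca1a rose by 0.41 (0.14), FDR p = 0.0305, and Nr2e3 by 0.38 (0.13), FDR p = 0.0381, in the authors' deposited table. Both of these rises lost their call when values were centred on the 1000 genes of highest level, which shifted values by 0.07 and gave 0 higher and 13 lower genes.

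The number of genes called after depletion depended on the error used. In the comparisons with ND, the SE of a gene was the same in the groups of 5 samples (ratio at most 1.00103) and 1.07 times as large for the 4 samples of D8 depleted, as 1 spread per gene over those tables gives. In D8 depleted against D8 the deposited SE of the 39 genes had a median of 0.126, against 0.186 with that shared spread, and was the smaller of both for 38 of 39. The exception was Gucy2f, whose deposited SE of 0.24 was larger than the shared one. For Gucy2f the shared spread is therefore not the stricter error, and its group mean was low, 4.75 in D8. With the shared spread, computed from the authors' deposited tables by a normal test, 3 genes were called, beside 11.7% of all genes: Gucy2f (adjusted p = 0.000753), Impg1 (adjusted p = 0.0348) and Rgs9 (adjusted p = 0.0399). Rcvrn (adjusted p = 0.176), Gucy2e (0.133), Gnat1 (0.106), Guca1a (0.101) and Nr2e3 (0.338) were then not called, by that normal test on the authors' deposited values.

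**Figure D3:**
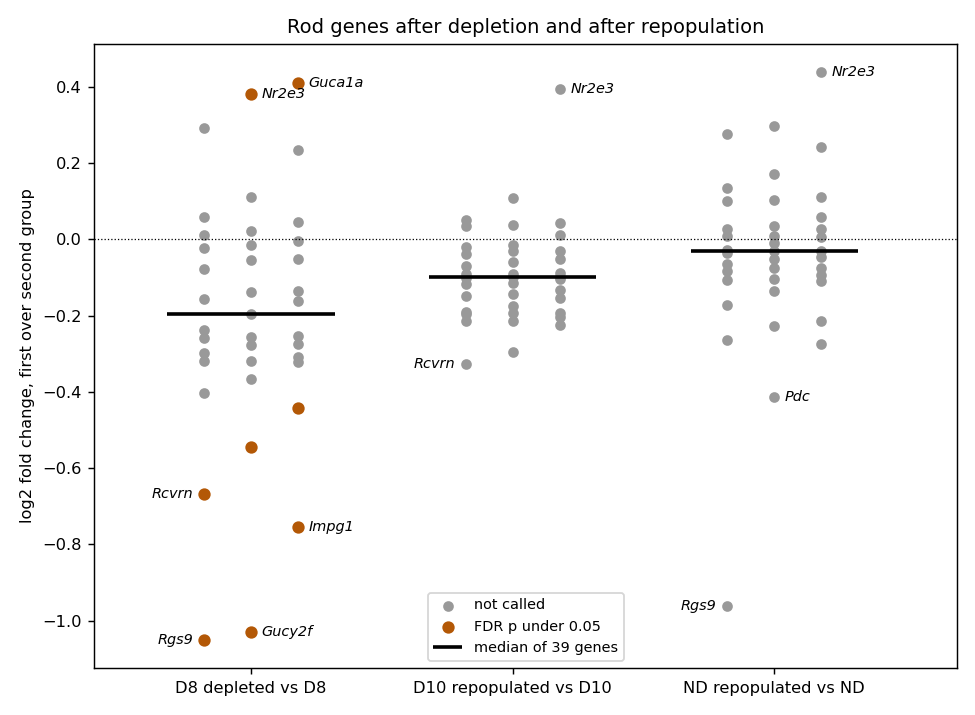
Log2 fold change (y axis) of the 39 rod genes after depletion in diabetic retina, after repopulation in diabetic retina and after repopulation in non-diabetic retina (x axis), 1 point per gene, with a bar at the median and coloured points where the deposited FDR p was under 0.05. The medians are -0.20, -0.10 and -0.03, and coloured points appear only after depletion.

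After repopulation no rod gene was called. In D10 repopulated against D10, 0 of 39 were called and 0 had an unadjusted p under 0.05, beside 0.446% of all genes called and 1224 of 16826 at an unadjusted p under 0.05. The values ran from -0.33 (Rcvrn) to 0.40 (Nr2e3) with an SE between 0.128 and 0.260, and 32 of 39 were negative, in the authors' deposited table. All 39 were measured in the same samples, so these signs are not independent and were not tested as a set. With the shared spread 0 of 39 were called as well, beside 0.149% of all genes. Unlike after depletion, the deposited SE was the larger here, with a median of 0.198 against 0.176 with the shared spread. It was the smaller of both for 12 of 39. In this comparison 4 of 15 microglia markers were still lower (median -0.94) and 4 of 6 tested blood genes were higher (median 3.80). In ND repopulated against ND, 0 of 39 were called, beside 0.156% of all genes. There 2 genes had an unadjusted p under 0.05, of 382 among all genes: Rgs9 at log2 -0.96 (0.33), FDR p = 0.784, and Pdc at -0.41 (0.17) in the authors' deposited table.

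Tests of the difference between these comparisons called none of the 39 genes. Depletion minus repopulation in diabetic retina called 0.654% of all genes, and 3 of the 39 had an unadjusted p under 0.05. Its largest differences were Rgs9, -1.04 (0.35), adjusted p = 0.142, and Gucy2f, -0.83 (0.29), adjusted p = 0.163, by a normal test on values computed from the authors' deposited tables. Depletion in diabetic retina minus repopulation in non-diabetic retina called 1.27% of all genes and had 3 of the 39 at an unadjusted p under 0.05. Repopulation in diabetic minus non-diabetic retina called 0.188% of all genes and had 1 of the 39 at an unadjusted p under 0.05, Rgs9 at 0.95 (0.42). In simulated data these 3 tests recovered between 91.5% and 93.5% of differences of log2 1 and between 14% and 26% of differences of log2 0.5. The changed genes there were drawn from all genes above a level cutoff, and Gucy2f lay below it in D8 depleted against D8. Rgs9 had an SE of 0.24 in that comparison, beside a median of 0.16 over all genes. These rates therefore do not give the power for Rgs9 or Gucy2f. For all 39 genes they also hold only if the deposited SE is right, because the simulated noise was drawn with it. In D8 depleted against D8 the deposited SE was smaller than with the shared spread for 38 of the 39.

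Groups other than ND were also set directly against each other with the spread shared between groups. These comparisons were added after the data were seen, and few of the 39 genes were called in them. In D10 repopulated against D8 depleted, 2 of the 39 genes rose and none fell, beside 8.46% of all genes called higher and 5.73% lower. Rgs9 was higher by log2 1.67 (0.36), adjusted p = 0.000371, and Gucy2f by 1.13 (0.23), adjusted p = 9.85e-05, by the normal test on the authors' deposited values. These groups also differ by 2 weeks of diabetes. In D8 depleted against D6 the same 2 genes fell, Rgs9, log2 -1.60 (0.36), adjusted p = 0.00235, and Gucy2f, log2 -0.92 (0.23), adjusted p = 0.00687, by the same test on the authors' deposited values, beside 4.02% of all genes called in either direction. The D8 depleted group is in both of these comparisons. In D10 repopulated against ND repopulated 3 genes rose and 2 fell, beside 5.73% higher and 3.63% lower among all genes. Rgs9 was at 1.44 (0.34), adjusted p = 0.00101, Pdc at 0.54 (adjusted p = 0.0240), Gnb5 at 0.53 (adjusted p = 0.0416), Rcvrn at -1.05 (adjusted p = 0.0143) and Rdh12 at -0.52 (adjusted p = 0.0134), again by the normal test on the authors' deposited values. Against ND, in the authors' deposited tables, Rgs9 was at 0.47 in D10 repopulated and -0.96 in ND repopulated, neither called. Pdc was at 0.13 and -0.41 in the same groups, also without a call. For D10 repopulated against D10 the shared spread gave a smaller median SE than the deposited one, 0.176 against 0.198.

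Between diabetic groups without depletion none of these genes was called. In D8 against D6, 0 of 39 were called, 6 had an unadjusted p under 0.05 and 4.33% of all genes were called. In D10 against D8, 0 of 39 were called, 0 had an unadjusted p under 0.05 and 0.0142% of all genes were called. The 11 genes lower at D6 and the absence of a lower gene at D8, both against ND, are therefore not shown to differ, and Rcvrn at D8 minus D6 was 0.71 (95% interval 0.09 to 1.32) and Impg1 0.68 (0.21 to 1.15).

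Calls in a list of 37 other photoreceptor genes went in both directions too. At D6 against ND 3 rose and 10 fell, in D8 depleted against D8 2 rose and 7 fell, and in D10 repopulated against D10 none was called, with 1 at an unadjusted p under 0.05. Over all genes, 14.1% were called higher and 9.31% lower at D6, and 5.85% higher and 4.9% lower after depletion. In D10 repopulated against D10, 0.446% of all genes were called. Rdh8, an outer segment retinol dehydrogenase, fell at D6, log2 -0.97 (0.19), FDR p = 9.69e-06, and after depletion, log2 -0.79 (0.19), FDR p = 0.00186, in the authors' deposited tables. Rd3, a regulator of the guanylate cyclases, fell at D6, log2 -0.86 (0.19), FDR p = 0.000124, in the authors' deposited table. Of 11 other photoreceptor transcription regulators, Samd7 and Samd11 rose at D6, log2 1.61 and 0.68, and Samd11 rose (0.83) and Mef2c fell (-0.37) after depletion, in the authors' deposited tables. The 12 rod-restricted genes among the 39 had 1 higher and 4 lower at D6, and the 23 that rods and cones share had 1 higher and 7 lower. The higher calls in both subsets were below the 14.1% of all genes called higher at D6.

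Cone genes of the same role had values both near to and far from those of their rod counterparts. Of 14 cone genes 1 rose and 1 fell at D6 against ND, and 4 fell after depletion. Among all genes the shares were 14.1% higher and 9.31% lower at D6, and 4.9% lower after depletion. At D6 Gnat1 was at -0.48 and the cone transducin gene Gnat2 at -0.00, while the inhibitory subunit genes Pde6g and Pde6h were at -0.55 and -0.46, both called, in the authors' deposited tables. After depletion rod arrestin Sag was at -0.08 and cone arrestin Arr3 at -0.99 (0.19), FDR p = 3.68e-05, in the authors' deposited table. Against ND, Arr3 was higher at D8, log2 0.88 (0.21), FDR p = 0.00302, and at -0.11 without a call in D8 depleted retina, in the authors' deposited tables. The channel genes Cngb1 and Cngb3 were at -0.01 and -0.65 after depletion, the latter called (FDR p = 0.0274), in the authors' deposited table. The difference between rod and cone genes was not tested.

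**Figure D4:**
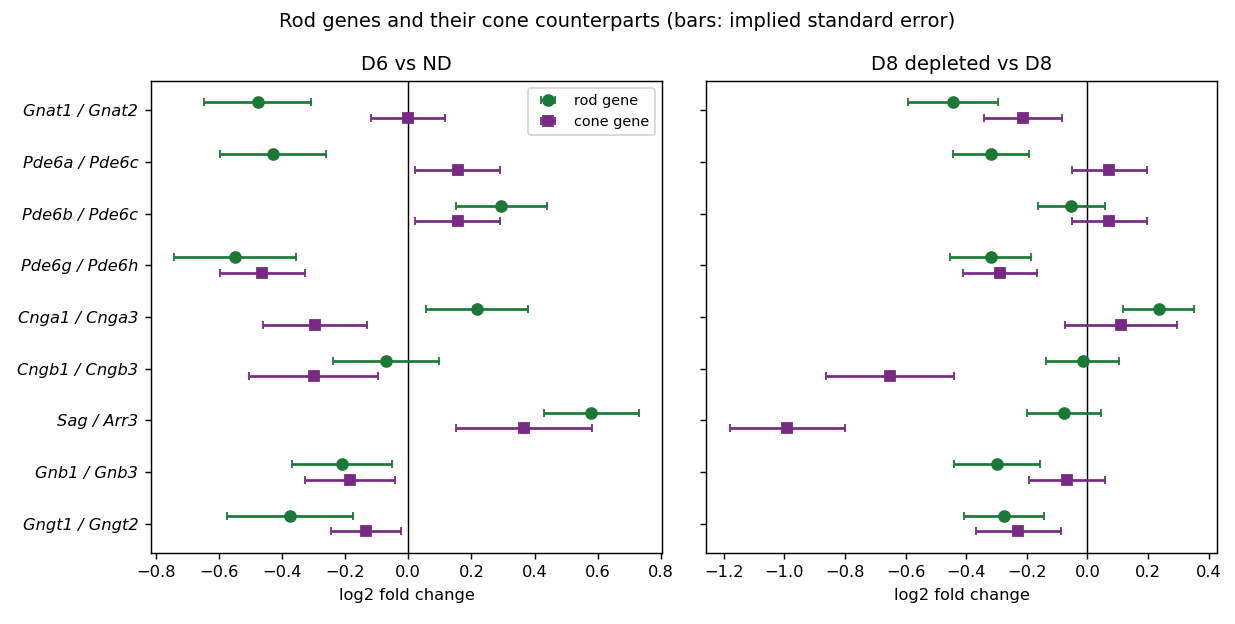
Log2 fold change (x axis) of 9 rod genes (circles) and the cone gene of the same role (squares), with bars of 1 implied SE, at D6 against ND (left) and in D8 depleted against D8 (right), with separate x scales. Sag and Arr3 are farthest apart after depletion, at -0.08 and -0.99.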

How the data were processed

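Retinal poly(A) RNA of 35 samples was sequenced as stranded paired reads, per the labels' protocols. Base calls were converted with bcl2fastq and the genome build was GRCm39, per the submitters' processing notes; the sources used here do not give the aligner, the counting tool, the scaling between samples or the test. The data that the authors deposited are 8 tables of 25655 genes, 1 per pair of groups. The log2 fold change was deposited by the authors as the first group over the second, and 1 table (D10 against D10 repopulated) was turned. The deposited signed fold change, a score, was not used. The signal level deposited by the authors is the larger of both group means, in a unit that is not stated. P-values, FDR p-values and Bonferroni values were deposited by the authors; Benjamini-Hochberg values computed over the tested genes differed from the FDR values by at most 0.000489. Sequencing depth and values per sample were not analysed here.

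From these tables the standard error of each gene was computed as its log2 fold change over the normal quantile of its p. Group means were recovered for 136 of 273 pairs of a gene and a group, 77 of them from the sign of the fold change, a rule that held in all 14868 cases where it could be checked. Levels were not compared between genes. Differences between comparisons without common samples were tested per gene with added variances, and comparisons between groups other than ND with the spread shared over groups (14270 genes), each by a normal test with Benjamini-Hochberg adjustment over all genes. The 5 comparisons with the shared spread were added after the data were seen, as was the use of that spread for the deposited pairs. Alternatives were FDR thresholds of 0.01 and of 0.10, Bonferroni, a minimum absolute log2 of 1, leaving out the lowest 40 percent of genes by level, and centring on the median of the genes above that filter or of the 1000 highest genes. The tests of differences were checked on simulated data with 200 changed genes per size and noise drawn with the SE that the tests used.

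The gene set and the lists of pathway and marker genes were chosen with earlier results of these data known. In each comparison every called gene of the set could be named, with at most 12 in full, and of other lists the 3 called genes of smallest p and the cone genes matched by role. Promoters came from RefSeq (GRCm38.p6) by symbol. Python 3.11.15, numpy 2.4.6, pandas 2.3.3, scipy 1.17.1 and matplotlib 3.10.9 were used.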

Additional observations from a re-analysis of the deposited data

How the results depend on the processing

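No paired analysis was possible because the tables hold no values per sample and the labels share no replicate numbers between groups. Leaving out single samples was not run for the same reason. No called value changed sign under these alternatives, while some values near 0 that were not called did under centring or as ratios of group means. The numbers of rod genes called were as follows where they moved by more than 1.5 times. At a threshold of 0.01 they were 5 at D6, 1 at D8, 1 at D10 and 8 at D8 depleted against ND, 2 for D8 depleted against D8 and 1 for D10 repopulated against ND repopulated. At 0.10 they were 9 for D10 repopulated against ND, 1 for D8 against D6 and 4 for D8 depleted against D6. With an absolute log2 of at least 1 they were 2, 0, 0, 4 and 1 at D6, D8, D10, D8 depleted and D10 repopulated against ND and 2 for D8 depleted against D8, and with Bonferroni 2, 0, 0, 3 and 0 against ND and 0 for D8 depleted against D8. Leaving out genes of low level gave 1 at D8 against ND. For D8 depleted against D8, centring on the 1000 highest genes gave 13 (0 higher and 13 lower), the difference of both comparisons with ND gave 0 with added variances, which are too large because ND is shared, and the shared spread gave 3. The thresholds and Bonferroni move counts by construction; otherwise the cause was not tested. Centring moved the values by at most 0.0672 in each of the 8 comparisons.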
